A study of Homo sapiens with 8 samples.

Results

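Threonine tRNAs are the tRNAs that carry threonine to the ribosome, and the deposited sites hold 3 kinds by anticodon, tRNA-Thr-AGT, tRNA-Thr-CGT and tRNA-Thr-TGT, called isoacceptors here. They were taken by name: every site on the sense strand of a reference named as a threonine tRNA was counted, by isoacceptor, reference and position. That gave 17 of the 254 references in the data, 3 of 55 families and 499 of 16258 sites. The 17 references are 6 of tRNA-Thr-AGT, which stand for 9 genes, 5 of tRNA-Thr-CGT and 6 of tRNA-Thr-TGT, with 1 gene each. In the RefSeq annotation of GRCh38.p14 all 20 genes were found: 9 lie on chromosome 6, 4 on chromosome 17, 3 on chromosome 14, and 1 each on chromosomes 1, 5, 16 and 19.

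The libraries are iCLIP, in which a protein is crosslinked to RNA, pulled down, and the RNA bases next to the crosslinks are read and counted. All 8 come from Flp-In T-Rex 293 cells, a modified human embryonic kidney line, which carry a tetracycline-induced 3xFLAG transgene. The 4 groups of 2 libraries were 3xFLAG-DUS2L cells given 5-chlorouridine (5-ClUrd, a uridine analogue), untreated 3xFLAG-DUS2L cells, 3xFLAG-DUS1L cells given 5-ClUrd, and untreated 3xFLAG-DUS1L cells. Every group received 1 µg/mL tetracycline for 12 h and again for another 12 h in fresh medium, which in the treated groups held 100 µM 5-ClUrd. The series calls the 2 libraries of a group biological replicates. The files used here hold tRNA and rRNA references, so markers of the cell line were not analysed here.

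Dihydrouridine synthases reduce uridine in tRNA to dihydrouridine, a base found mostly in the D loop, which is named after it. DUS1L and DUS2L are human members of this enzyme family. An enzyme that has taken up a 5-halogenated uridine in its target RNA can stay bound to it, and the analogue is used to catch such contacts. In iCLIP the site is read where reverse transcriptase stops, and some modified tRNA bases also stop it, so counts at a site need not all come from crosslinks.

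Sense counts per library ranged from 7369 to 824657, and threonine tRNA took 131 to 63719 of them. The 2 replicates of treated DUS2L had 370878 and 363024 sense counts, those of untreated DUS2L 130011 and 172078, those of treated DUS1L 824657 and 542521, and those of untreated DUS1L 144322 and 7369. The second untreated DUS1L library therefore stands apart in depth. A floor of 3 counts, used below where no count was seen, is 0.0407% of it and at most 0.00231% of any other. The highest count at any threonine site in treated DUS1L was 1063 and 1024, and 21 and 10 sites there lay at 900 or more. Of the threonine counts of these 2 libraries, 45.5% and 45.4% lay on sites above 500 counts, against 0 in the untreated DUS1L libraries. In treated DUS2L it was 30.7% and 17.5%, against 0 in untreated DUS2L. The untreated DUS2L libraries held only 340 and 376 threonine counts in all, and the second untreated DUS1L library 131. No site in these libraries could lie above 500, so their 0 cannot be set against the treated values. In the first untreated DUS1L library the highest threonine site had 298 counts. Over all references, the highest site count lay between 1061 and 1436 in 7 of the 8 libraries, whose sense totals ran from 130011 to 824657, and was 555 in the shallow one. How molecular identifiers were handled is not given in the sources used here, and whether the highest sites are limited in count was not tested.

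Threonine tRNA took a larger share of the sense counts with 5-ClUrd in both cell lines. In DUS2L cells it was 3.17% and 3.25% of the counts in the treated libraries, against 0.262% and 0.219% in the untreated ones. In DUS1L cells it was 7.73% in each treated library, against 1.18% and 1.78% in the untreated ones. The groups of each pair did not overlap, and with 2 libraries against 2 an exact two-sided permutation test cannot go below p = 0.3333. A share of contacts cannot tell more contact per tRNA from more tRNA, and it also depends on what the other RNAs contribute.

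**Figure D1:**
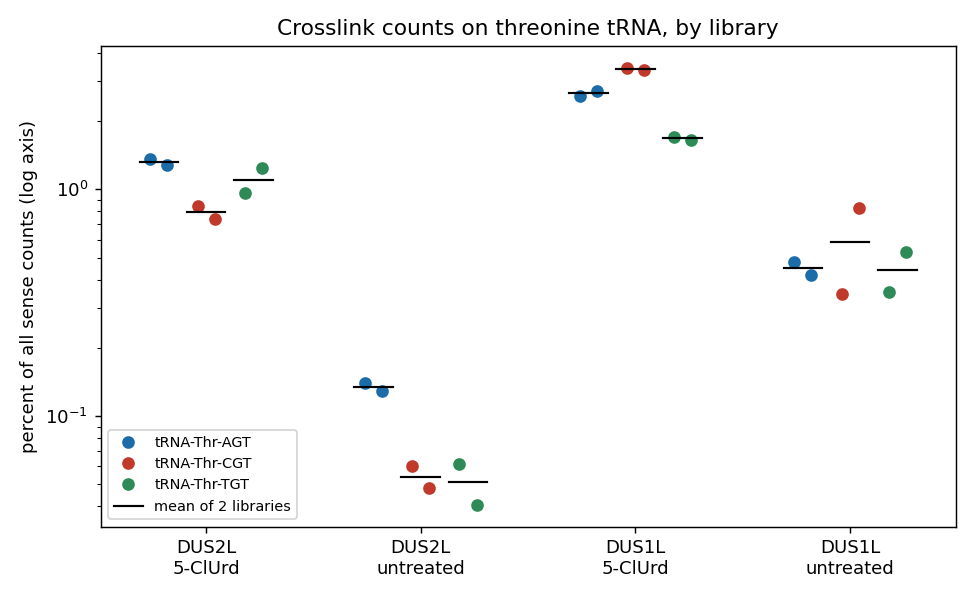
Each point is the percent of 1 library's sense counts on a threonine isoacceptor (log axis) and each bar the mean of 2 libraries, by group. Every treated point lies above every untreated point of the same enzyme and isoacceptor, and treated DUS1L is the highest group for all 3 isoacceptors.

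In DUS2L cells all 3 isoacceptors rose with 5-ClUrd. tRNA-Thr-TGT was 0.964% and 1.24% of the sense counts in treated DUS2L libraries, against 0.0615% and 0.0407% in untreated ones. tRNA-Thr-CGT was 0.843% and 0.741% in treated libraries, against 0.0600% and 0.0482% in untreated ones. tRNA-Thr-AGT was 1.36% and 1.28% in treated libraries, against 0.140% and 0.130% in untreated ones. No treated library overlapped an untreated one for any isoacceptor. By edgeR's quasi-likelihood test over 55 families, the log2 fold change was 4.44 ± 0.30 (SE) for tRNA-Thr-TGT (adjusted p = 2.48e-05), 3.87 ± 0.24 for tRNA-Thr-CGT (adjusted p = 2.15e-05) and 3.29 ± 0.21 for tRNA-Thr-AGT (adjusted p = 2.15e-05). They ranked 3, 5 and 9 of 55 families by fold change. In this comparison 52.7% of all families were called higher, and the median log2 fold change over all families was 0.86, so a rise as such was common. Among the 40 families of type I tRNA, those of like arm structure with threonine included, 26 were called higher and the median was 1.17. All 3 were called in each of the 15 alternatives tried.

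In DUS1L cells tRNA-Thr-AGT and tRNA-Thr-CGT rose with 5-ClUrd, and tRNA-Thr-TGT missed the threshold. tRNA-Thr-CGT was 3.43% and 3.37% of the sense counts in treated DUS1L libraries, against 0.346% and 0.828% in untreated ones. tRNA-Thr-AGT was 2.59% and 2.72% in treated libraries, against 0.479% and 0.421% in untreated ones. tRNA-Thr-TGT was 1.70% and 1.65% in treated libraries, against 0.352% and 0.529% in untreated ones. Here too the groups did not overlap. The log2 fold changes in edgeR over 53 families were 2.56 ± 0.63 (SE) for tRNA-Thr-CGT and 2.55 ± 0.58 for tRNA-Thr-AGT (adjusted p = 0.0347 each), and 1.95 ± 0.67 for tRNA-Thr-TGT (adjusted p = 0.0641). The background was 22.6% of families called higher and 1.89% lower, with a median log2 fold change of 1.35. Of 38 type I families, 10 were called higher, and their median was 0.97. Both calls are lost with TMM factors, which take most families as unchanged (1.55, adjusted p = 0.108 for tRNA-Thr-CGT and 1.51, adjusted p = 0.128 for tRNA-Thr-AGT, edgeR), and without either treated library, where the edgeR adjusted p is 0.460 to 0.491. The untreated arm holds the library of 7369 counts, in which threonine tRNA had 131.

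The effect of 5-ClUrd was larger in DUS2L than in DUS1L cells for tRNA-Thr-TGT. The difference of the log2 fold changes was 2.47 ± 0.52 (SE, edgeR adjusted p = 0.0125), the fourth largest of 55 families, where 10.9% were called higher. It was 1.28 ± 0.64 for tRNA-Thr-CGT (edgeR adjusted p = 0.142) and 0.74 ± 0.42 for tRNA-Thr-AGT (edgeR adjusted p = 0.184), neither past the threshold. The tRNA-Thr-TGT call is lost with TMM factors (1.29, edgeR adjusted p = 0.180) and with sites above 500 counts left out (0.96, edgeR adjusted p = 0.438). It is also lost without the first treated DUS1L library (edgeR adjusted p = 0.0554), the second one (0.0694) or the second untreated DUS2L library (0.0903).

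Between the enzymes, threonine tRNA was a smaller share in DUS2L cells. With 5-ClUrd, tRNA-Thr-CGT averaged 0.792% of the sense counts in DUS2L and 3.40% in DUS1L libraries, a log2 fold change of -2.10 ± 0.45 (SE, edgeR adjusted p = 0.00423), called in 18 of 18 alternatives. tRNA-Thr-AGT averaged 1.32% in treated DUS2L and 2.65% in treated DUS1L libraries, -1.01 ± 0.30 (edgeR adjusted p = 0.0189). That call held in 7 of 18 alternatives, with adjusted p up to 0.144, and the fit with the replicate number as a block gave -0.98 (edgeR adjusted p = 0.107). tRNA-Thr-TGT averaged 1.10% in treated DUS2L and 1.68% in treated DUS1L libraries, -0.61 ± 0.35 (edgeR adjusted p = 0.169). So 2 of 3 were called lower, and 0 higher, where 27.3% of families were lower and 38.2% higher, and the median over all families was 0.49. Among the 40 type I families 37.5% were lower and the median was -0.55.

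Without the analogue all 3 isoacceptors were lower in DUS2L than in DUS1L cells, where 41.8% of all families were called lower and the median log2 fold change was 2.45. Among the 40 type I families 57.5% were called lower and the median was -1.75, the value of tRNA-Thr-AGT. The log2 fold change was -3.38 ± 0.50 (SE) for tRNA-Thr-CGT (edgeR adjusted p = 0.000421), -3.08 ± 0.40 for tRNA-Thr-TGT (edgeR adjusted p = 0.000207) and -1.75 ± 0.31 for tRNA-Thr-AGT (edgeR adjusted p = 0.00122). Both comparisons between enzymes come from 1 fit of all 8 libraries and share its estimate of the spread. The names of the DUS2L site files mention a premapping step that those of DUS1L do not, so enzyme and file making cannot be told apart. The calls are lost in 1 alternative each for tRNA-Thr-AGT (-1.16 with TMM factors, edgeR adjusted p = 0.0755) and tRNA-Thr-TGT (-1.55 with sites above 500 counts left out, edgeR adjusted p = 0.0556).

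**Figure D2:**
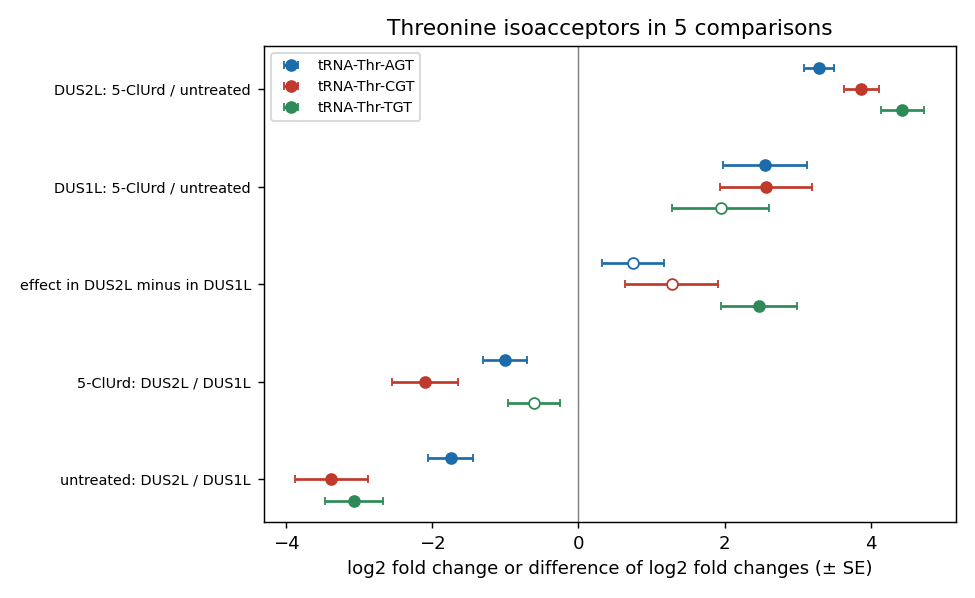
Points are edgeR log2 fold changes, or for the third line the difference of 2 log2 fold changes, with SE bars, and filled points have an adjusted p under 0.05. All 3 isoacceptors are filled for DUS2L with 5-ClUrd, and all lie left of 0 in both comparisons between the enzymes.

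The make-up of threonine tRNA differed between the enzymes. tRNA-Thr-CGT was 26.6% and 22.8% of the threonine counts in treated DUS2L libraries, against 44.4% and 43.5% in treated DUS1L ones. tRNA-Thr-TGT was 30.4% and 37.98% in treated DUS2L libraries, against 22.1% and 21.3% in treated DUS1L ones. Neither pair overlapped (exact permutation p = 0.3333, the smallest possible). Within DUS2L, tRNA-Thr-AGT was 43.01% and 39.3% in treated libraries, against 53.5% and 59.3% in untreated ones. tRNA-Thr-TGT was 30.4% and 37.98% in treated DUS2L libraries, against 23.5% and 18.6% in untreated ones. Within DUS1L, tRNA-Thr-TGT was 22.1% and 21.3% in treated libraries, against 29.9% and 29.8% in untreated ones, a difference of -8.15 points that turned to 3.51 with sites above 500 counts left out. The difference of 13.1 points in DUS2L was 0.74 with each site counted once.

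By likeness of the share over the 8 libraries (root mean square difference of centred log2 values), the families nearest to tRNA-Thr-AGT were tRNA-Thr-TGT (0.58), tRNA-Ala-AGC (0.71) and tRNA-Thr-CGT (0.79), against a median of 2.26 over the others. Nearest to tRNA-Thr-CGT were tRNA-Ala-CGC (0.47), tRNA-Ala-AGC (0.55) and tRNA-Thr-TGT (0.58), and nearest to tRNA-Thr-TGT were the other two threonine isoacceptors and tRNA-Ala-AGC (0.74). The libraries share depth and group, so these are descriptions.

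Single references carried the counts unevenly. No tRNA sequence was used here, so the likeness of the references was not measured. How reads that match several were placed is not given in the sources used here, and values of single references are uncertain. Counts on tRNA-Thr-AGT-1-3, which stands for 3 genes, lay at positions 2 to 15 only, those on tRNA-Thr-CGT-3-1 at 2 to 34, and those on tRNA-Thr-AGT-6-1 at 2 to 20, counted from 1 at the 5′ end. A fit over references in place of families was added after the data had been seen.

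In DUS2L cells 12 of the 15 threonine references tested were called higher with 5-ClUrd, against 48.7% of all 230 references and 52.9% of the 187 of type I tRNA. tRNA-Thr-TGT-2-1, whose gene is at chr1:222465005-222465077, had 1111 and 2307 counts in treated DUS2L libraries, against 14 and 21 in untreated ones, a log2 fold change of 5.34 ± 0.46 (SE, edgeR adjusted p = 2.17e-25). tRNA-Thr-CGT-1-1, at chr6:28488993-28489066, had 2127 and 1706 counts in treated libraries, against 35 and 39 in untreated ones, 4.40 ± 0.41 (edgeR adjusted p = 6.08e-22). Both passed in 12 of 12 alternatives. tRNA-Thr-AGT-1-3 had 33 and 45 counts in treated DUS2L libraries and 0 in both untreated ones, which is at least 10.7-fold higher with a floor of 3 counts over the group. Few untreated counts also stood behind the calls of tRNA-Thr-TGT-5-1 (1 and 0), tRNA-Thr-TGT-3-1 (3 and 3) and tRNA-Thr-CGT-3-1 (3 and 6). Each of these references reached the minimum of 10 counts only through the treated libraries.

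In DUS1L cells 10 of 14 references tested were called higher, and 0 lower, against 32.9% and 4.82% of all 228, and 47 and 11 of the 188 of type I tRNA. tRNA-Thr-AGT-1-3 had 1849 and 1275 counts in treated DUS1L libraries, against 1 and 1 in untreated ones, which is 173 times as much per sense count with the libraries pooled (95% interval from counting error, 47.9 to 1432), while the means of the library shares, 0.230% and 0.00713%, differ 32.2-fold. Its log2 fold change in edgeR was 7.02 ± 1.60 (SE, adjusted p = 0.000797), and from 4.08 to 8.32 with 1 library left out. It reached the minimum of 10 counts only through the treated libraries, as did tRNA-Thr-AGT-2-1, also called higher (160 and 42 against 2 and 0). tRNA-Thr-TGT-2-1 had 2847 and 2161 counts in treated libraries, against 25 and 0 in untreated ones, with a log2 fold change of 4.76 ± 1.13 (SE, edgeR adjusted p = 0.00110). These and tRNA-Thr-AGT-6-1 passed in 10 of 12 alternatives. With TMM factors, DESeq2 size factors or DESeq2's Wald test 3 references remained called, and without either treated DUS1L library 0 were.

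Set against treated DUS1L, treated DUS2L had fewer counts on most tRNA-Thr-CGT references, with 7 of 15 threonine references called lower and 2 higher (34.4% and 29.9% of all 244). Among the 201 references of type I tRNA 41.3% were lower, and the median log2 fold change was -1.03 for them as for threonine. tRNA-Thr-CGT-3-1, at chr6:28648207-28648280, had 140 and 116 counts in treated DUS2L libraries, against 4686 and 2941 in treated DUS1L ones, -3.99 ± 0.64 (log2 fold change, SE, edgeR adjusted p = 2.20e-05). tRNA-Thr-CGT-2-1, at chr16:14285893-14285964, had 427 and 446 against 9490 and 6158, -3.26 ± 0.66 (edgeR adjusted p = 0.000245). tRNA-Thr-AGT-1-3 had 33 and 45 against 1849 and 1275, -4.43 ± 0.79 (edgeR adjusted p = 7.82e-05). Each of the 3 passed in 15 of 15 alternatives, while the number called lower was 4 without any 1 of the 4 treated libraries.

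The 2 references called higher in treated DUS2L were minor ones on chromosome 14. tRNA-Thr-TGT-3-1, at chr14:20613790-20613862, had 111 and 66 counts in treated DUS2L libraries, against 28 and 8 in treated DUS1L ones, 3.26 ± 0.81 (log2 fold change, SE, edgeR adjusted p = 0.00163). Over the 8 libraries it had more antisense than sense counts, 357 against 220. The antisense counts were 39 and 281 in treated DUS2L, against 1 and 2 in treated DUS1L. Whether the counts of the 2 strands are linked was not tested. tRNA-Thr-TGT-5-1, at chr14:20681690-20681762, had 25 and 34 counts in treated DUS2L libraries, against 0 and 0 in treated DUS1L ones, at least 36.6-fold higher. Its counts lay at positions 2 to 5 only, and it reached the minimum of 10 counts through the treated DUS2L libraries. tRNA-Thr-TGT-2-1 and tRNA-Thr-AGT-6-1 were not called between the enzymes, and under the replicate block their log2 fold changes were -0.23 and -0.00029 in place of 0.33 and 0.66. In 2 of 15 alternatives tRNA-Thr-AGT-6-1 was called higher in treated DUS2L. These were DESeq2 size factors (1.66, edgeR adjusted p = 0.0203) and DESeq2's Wald test (1.66, adjusted p = 0.0149). tRNA-Thr-TGT-2-1 was called in 0 of 15.

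**Figure D3:**
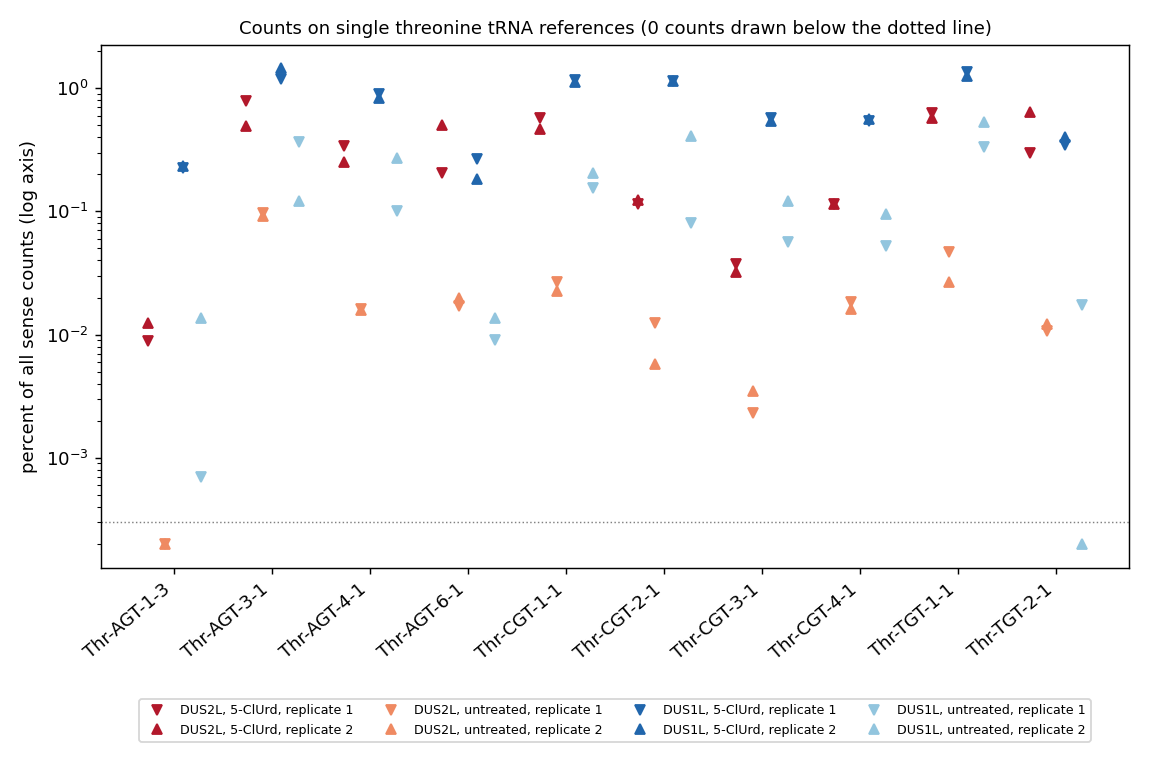
Each triangle is the percent of 1 library's sense counts on a threonine reference (log axis), for the 10 references with at least 5% of their isoacceptor in a group, and 0 counts are drawn below the dotted line. tRNA-Thr-CGT-2-1 and tRNA-Thr-CGT-3-1 are set far lower in treated DUS2L than in treated DUS1L, while tRNA-Thr-TGT-2-1 overlaps.

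At single sites, rises prevailed in both lines. In DUS1L 240 of 385 threonine sites tested were called higher with 5-ClUrd and 0 lower (62.3%, against 31.7% higher and 2.31% lower of all 4715 sites and 30.6% higher of 3877 type I ones, edgeR; 282 had an unadjusted p under 0.05). Of the 385, 246 had no count in either untreated library and so passed the minimum of 10 counts through the treated libraries alone, as did 167 of the 240. The number called is 11 with DESeq2's Wald test and 12 without the first untreated DUS1L library, which leaves the shallow one. In DUS2L 83 of 186 were called higher and 0 lower (44.6%, against 14.9% of all 5140 and 26.3% of 2517 type I ones, edgeR; 116 had an unadjusted p under 0.05). Of the 186, 103 had no count in either untreated DUS2L library and so passed through the treated libraries alone, as did 47 of the 83. Without either untreated DUS2L library 0 were called, and without the second treated one 54.

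The 5 most heavily counted threonine sites in treated DUS2L were called higher, and 2 of them are given here. Position 59 of tRNA-Thr-TGT-1-1 had 417 and 679 counts in treated DUS2L libraries, against 7 and 7 in untreated ones, a log2 fold change of 4.98 ± 0.61 (SE, edgeR adjusted p = 3.67e-13). Position 33 of tRNA-Thr-CGT-1-1 had 658 and 592 in treated libraries, against 25 and 21 in untreated ones, 3.44 ± 0.50 (edgeR adjusted p = 1.91e-09). Among the largest changes, position 59 of tRNA-Thr-CGT-1-1 had 105 and 258 in treated libraries, against 0 and 0, at least 49.8-fold higher.

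In DUS1L the 5 most heavily counted threonine sites did not pass, but 4 of them, all but position 59 of tRNA-Thr-TGT-1-1, are called higher without the shallow untreated library. Position 59 of tRNA-Thr-TGT-1-1 had 1057 and 1024 counts in treated DUS1L libraries, against 298 and 19 in untreated ones, -0.54 on the log2 scale (edgeR adjusted p = 0.686). Position 25 of tRNA-Thr-CGT-2-1 had 1063 and 1006 in treated libraries, against 63 and 19 in untreated ones, 0.15 (edgeR adjusted p = 0.925), a value that turned negative with TMM factors (-0.39) and was 1.85 (edgeR adjusted p = 0.00530) without the shallow untreated library. These sites have counts at the top of the range of their treated libraries. Sites with no count in untreated libraries were among the rises: position 9 of tRNA-Thr-CGT-2-1 had 631 and 348 in treated libraries, against 0 and 0, at least 36.2-fold higher, and position 6 of tRNA-Thr-TGT-2-1 had 587 and 329 against 0 and 0, at least 33.9-fold higher. Neither is called without the first untreated or either treated DUS1L library (edgeR adjusted p = 0.0671 to 0.108).

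Between the treated enzymes, 205 of 405 threonine sites were called lower in DUS2L and 10 higher, against 29.2% lower and 23.2% higher among all 7873 sites (edgeR). A site entered with 10 counts summed over all 8 libraries, so it could pass through the deeper treated DUS1L libraries alone. How many of the 205 did so was not counted. Of the 10 called higher, 3 had no count in treated DUS1L. Among the 4752 sites of type I tRNA 46.7% were lower, with a median log2 fold change of -2.57 against -2.69 for threonine sites. By isoacceptor 116 of 169 sites of tRNA-Thr-CGT, 59 of 141 of tRNA-Thr-AGT and 30 of 95 of tRNA-Thr-TGT were lower. Position 28 of tRNA-Thr-CGT-3-1 had 0 and 0 counts in treated DUS2L libraries, against 184 and 75 in treated DUS1L ones, at least 46.3-fold lower. Position 2 of tRNA-Thr-TGT-5-1 had 24 and 24 against 0 and 0, at least 29.8-fold higher. The count of lower sites is 15 with DESeq2's Wald test and 60 under the replicate block, and without the first or second treated DUS1L library it is 90 or 108. The count of higher sites is then 4 or 2.

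Counts gathered at 3 places along the molecule, picked after the values had been seen. When references of 72, 73 and 74 nt were set on 1 scale from their last base, these lay 47, 41 and 15 nt before it, at positions 27, 33 and 59 of a 74 nt reference. Together they held 55.6% and 43.6% of the threonine counts in treated DUS2L libraries, against 47.9% and 61.2% in untreated ones, which overlap. They held 29.0% and 40.8% in treated DUS1L libraries, against 81.2% and 79.4% in untreated ones, which do not. The place 15 nt before the last base alone held 6.64% and 10.4% in treated DUS1L, against 31.0% and 27.5% in untreated DUS1L. It held 7.82% and 14.9% in treated DUS2L, against 2.65% and 3.99% in untreated DUS2L, so it lay higher with 5-ClUrd in DUS2L and lower in DUS1L, and this difference between the enzymes was not tested. This place includes position 59 of tRNA-Thr-TGT-1-1, whose counts in treated DUS1L lay at the top of the range. The place 47 nt before the last base includes position 25 of tRNA-Thr-CGT-2-1, also at the top of the range in treated DUS1L. Whether such sites are limited in count was not tested. The treated DUS1L shares of the 3 places together carry the same limit, and no alternative was run for any of them.

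**Figure D4:**
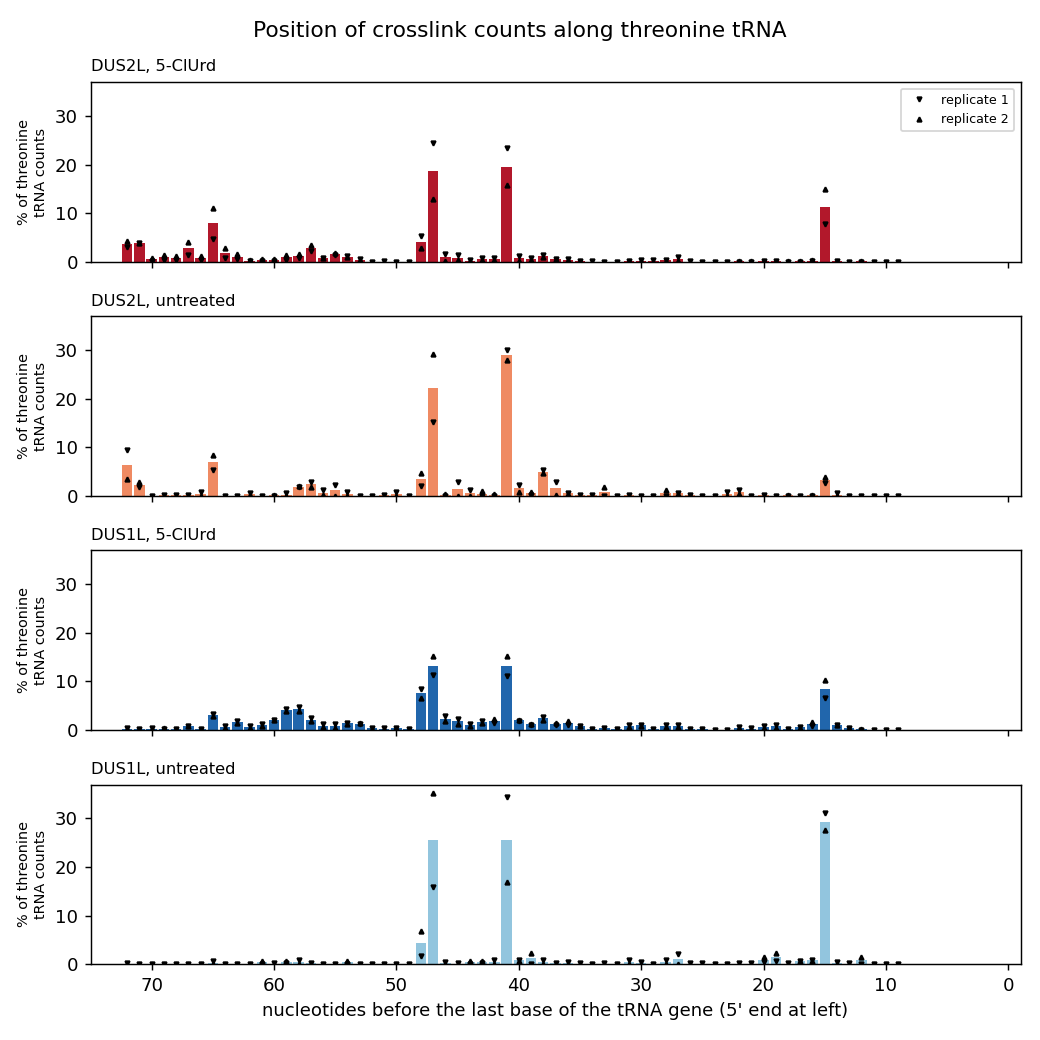
Bars are the mean percent of threonine tRNA counts by distance in nt from the last base of the gene, triangles the 2 libraries, 1 panel per group. The peaks 47, 41 and 15 nt before the last base stand almost alone in untreated DUS1L, and counts spread over more positions in treated DUS1L. Treated DUS1L libraries are deeper, and whether their highest sites are limited in count was not tested.

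By region, the D loop (positions 14 to 21) held 18.4% and 14.7% of the threonine counts in treated DUS1L libraries, against 1.65% and 1.53% in untreated ones. The untreated DUS1L libraries had only 1700 and 131 threonine counts in all. With each site counted once the DUS1L means were 16.8% treated and 9.18% untreated. With sites above 500 counts left out they were 22.2% and 5.72%. In DUS2L the D loop held 7.77% and 11.04% in treated libraries, against 9.71% and 4.52% in untreated ones, which overlap. Over the other 37 families of like arm structure, the D loop held a mean of 27.05% in treated DUS2L, 28.8% in untreated DUS2L, 20.9% in treated DUS1L and 13.1% in untreated DUS1L. Treated DUS2L lay below treated DUS1L in the D loop of threonine tRNA by 7.15 points, a difference of -7.15 that turned to 0.79 with sites above 500 counts left out. All these tests have 2 libraries against 2 and an exact permutation p of at least 0.3333.

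The 5′ end (positions 1 to 9) held 15.0% and 28.7% in treated DUS2L libraries, against 7.66% and 6.40% in treated DUS1L ones, and 18.2% and 14.9% in untreated DUS2L, against 0.941% and 0 in untreated DUS1L. The treated difference turned from 14.8 to -1.81 points when each site was counted once. The other 37 families of like arm structure also had more at the 5′ end in DUS2L. Their mean was 32.5% in treated DUS2L, against 8.23% in treated DUS1L, and 31.3% in untreated DUS2L, against 3.38% in untreated DUS1L. The variable and T region (positions 44 to 65) held 16.8% and 18.8% in treated DUS1L libraries, against 39.1% and 34.4% in untreated ones. In DUS2L it held 11.2% and 18.1% in treated libraries, against 6.47% and 7.18% in untreated ones, a difference of 7.84 points that was -1.04 with sites above 500 counts left out. In the other 37 families this region held 20.1% and 19.4% in treated DUS1L, against 33.3% and 9.71% in untreated DUS1L. In DUS2L it held 6.76% and 11.1% there in treated libraries, against 4.86% and 6.82% in untreated ones. The hinge (positions 26 and 27) overlapped in each comparison, at 27.2% and 12.6% in treated DUS2L, 13.5% and 30.6% in untreated DUS2L, 15.2% and 16.4% in treated DUS1L and 13.1% and 19.1% in untreated DUS1L. No count lay beyond position 65.

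**Figure D5:**
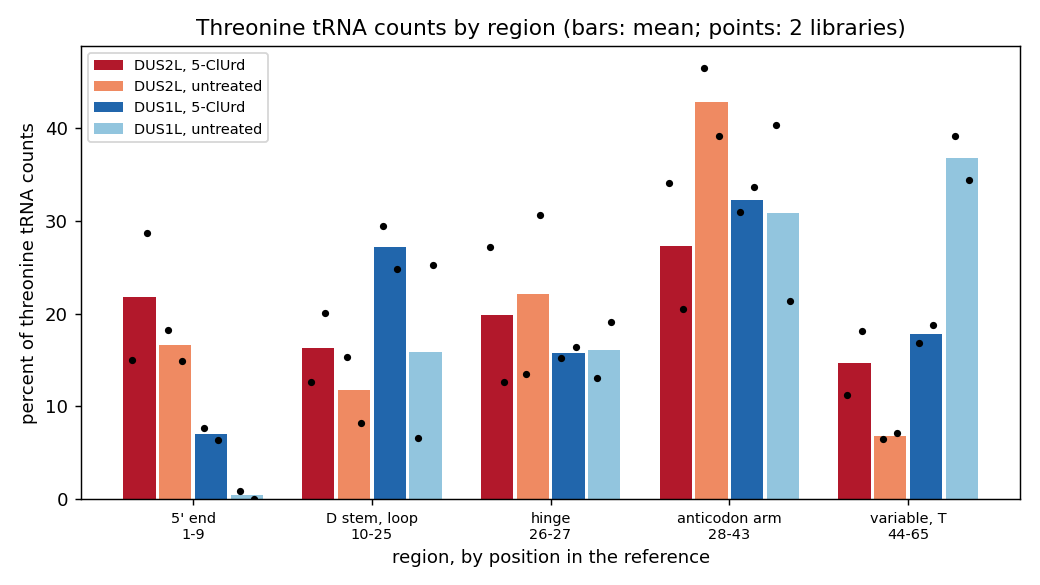
Bars are the mean percent of threonine tRNA counts in 5 regions by position in the reference and points the 2 libraries, by group. Untreated DUS1L has the highest variable and T region and nearly no counts at the 5′ end.

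The deposited peak lists held few threonine tRNA peaks. Peaks on the sense strand of threonine tRNA numbered 6 and 6 in treated DUS2L libraries, 2 and 1 in untreated DUS2L, 16 and 7 in treated DUS1L, and 3 and 2 in untreated DUS1L. Peaks of all kinds on both strands numbered 225 and 300 in treated DUS2L, 200 and 201 in untreated DUS2L, 335 and 256 in treated DUS1L, and 126 and 37 in untreated DUS1L. On both strands threonine tRNA was 2.67% of the peaks in each treated DUS2L library, against 1.00% and 0.498% in untreated DUS2L ones. It was 4.78% and 2.73% in treated DUS1L libraries, against 2.38% and 5.41% in untreated ones, which overlap. The authors' highest threonine peak score was 445 and 1043 in treated DUS2L, against 14 and 30 in untreated DUS2L, and 2038 and 1642 in treated DUS1L, against 91 and 26 in untreated DUS1L. The score equals the summed site counts inside the peak, so it is no separate measurement.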

How the data were processed

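The authors' deposited site files give raw whole-number counts per single-nucleotide site and strand, 1 file per library; the deposited peak files give a score per interval, equal in 1680 of 1680 peaks to the sum of its sites' counts. The submitters' processing notes name STAR 2.7.0f and hg38; for peak calling, molecular identifiers and reads with several matches, the step is not given in the sources used here. DUS2L site file names mention premapping to non-coding RNAs and DUS1L ones do not.

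Sense counts were summed to families (amino acid and anticodon, or rRNA), references and sites. Those summing to 10 counts or more in a fit entered edgeR 4.0.16 (quasi-likelihood, R 4.3.3), scaled to total sense counts, with Benjamini-Hochberg adjusted p under 0.05 over all features. Effects within an enzyme used its 4 libraries, and comparisons between enzymes all 8. Each SE was derived from the test, as the absolute log2 fold change divided by the square root of its F statistic. Shares were compared by exact two-sided permutation. The fits were also run on simulated data, where that of DUS1L families found fewer of the changed families than the other fits of families. Each fit had a single simulated draw, with a fixed spread not taken from these data, so this order is that of a single draw. Alternatives were minimum counts of 1 and 50, TMM factors, size factors or the Wald test of DESeq2 1.42.0, the replicate number as a block, each library left out, all 8 libraries in 1 fit, tRNA alone, sites above 500 counts left out, each site counted once and both strands. The fits over references, the 3 places along the molecule and positions counted from the 3′ end were added after the data had been seen.

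The members, lists and tests were chosen with earlier results of these data known. Named are all 3 isoacceptors, references with at least 5% of their isoacceptor in a group, and per site comparison the 5 sites of highest share and the 3 largest changes each way, some of which stand only in counts; tRNA-Thr-TGT-3-1 and tRNA-Thr-TGT-5-1 were named after their values were seen. Gene positions are from RefSeq (GRCh38.p14). Intervals and floors cover counting error only. Figures used matplotlib 3.10.9 and tables pandas 2.3.3, scipy 1.17.1 and numpy 2.4.6, under Python 3.11.15.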

Additional observations from a re-analysis of the deposited data

Results flagged for a closer look

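The 5-ClUrd effect on tRNA-Thr-TGT differed between the enzymes, by 2.47 on the log2 scale (DUS2L minus DUS1L) in a test of the difference itself; the report gives the libraries and settings without which the call is lost. For 3 shares of the threonine counts both treated DUS2L libraries lay above both untreated DUS2L ones. For the same shares both treated DUS1L libraries lay below both untreated DUS1L ones. The values given are differences of group means. The share of tRNA-Thr-TGT differed by 13.1 points in DUS2L and by -8.15 points in DUS1L, that of the variable and T region by 7.84 and -18.9 points, and that of the place 15 nt before the last base, which lies in this region, by 8.06 and -20.7 points. These differences between the enzymes were not tested, and the report gives the settings in which the DUS1L value of the first and the DUS2L value of the second change sign. The DUS2L value of the first is 0.74 points with each site counted once. No alternative was run for the third, which includes sites at the top of the count range in treated DUS1L.

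Antisense counts on tRNA-Thr-TGT-2-1, a strand that the comparisons do not use, numbered 4 in the treated DUS1L libraries together, 2 in each, against 0 in both untreated DUS1L libraries. The untreated libraries are far shallower. Per 1e6 sense counts the treated value is 2.93, below the 19.8 that 3 counts would be in the untreated libraries, so no difference can be read from it.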

How the results depend on the processing

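In DUS2L cells the rise of all 3 isoacceptors stayed past the threshold in every alternative tried, and the count of 12 higher references ran from 10 to 12. In DUS1L cells the 2 isoacceptors called became 0 with TMM factors, DESeq2 size factors and DESeq2's Wald test, 1 with sites above 500 counts left out or each site counted once, and 0 to 3 when 1 library was left out. With each site counted once the 1 called was tRNA-Thr-TGT (1.02, edgeR adjusted p = 0.04997). In that setting neither tRNA-Thr-AGT (0.44, edgeR adjusted p = 0.200) nor tRNA-Thr-CGT (0.60, edgeR adjusted p = 0.137) passed. TMM and DESeq2 size factors moved the median family by -1.05 and -1.32 (log2) in DUS1L and by -0.65 and -0.75 in DUS2L. The 10 DUS1L references called became 3 with TMM factors, DESeq2 size factors and the Wald test, and 0 to 11 with 1 library left out. The 1 isoacceptor whose effect was larger in DUS2L became 0 with TMM factors and with sites above 500 counts left out, 3 with each site counted once, and 0 to 2 with 1 library left out. That difference turned to -0.28 for tRNA-Thr-AGT and -0.052 for tRNA-Thr-CGT with TMM factors, and to -0.036 for tRNA-Thr-CGT with sites above 500 counts left out. Between treated enzymes the 2 isoacceptors called lower became 1 with TMM factors, DESeq2 size factors, the Wald test, the replicate block, sites above 500 counts left out and each site counted once, and 1 to 2 with 1 library left out. The 7 lower references became 3 with DESeq2 size factors, 4 with the Wald test, 4 with the replicate block, and 4 to 8 with 1 library left out.

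Of single sites, the 240 higher in DUS1L became 120 with TMM factors, 11 with the Wald test, 128 in 1 fit of all 8 libraries, 117 with positions summed over an isoacceptor, and 12 to 241 with 1 library left out. The 83 higher in DUS2L became 51 with TMM factors, 32 and 54 at minimum counts of 1 and 50, and 0 to 57 with 1 library left out. Between treated enzymes the 10 higher became 33 with DESeq2 size factors, 5 at a minimum count of 50, 2 with the replicate block, 3 with positions summed, and 2 to 13 with 1 library left out. The 205 lower became 76 with DESeq2 size factors, 15 with the Wald test, 60 with the replicate block, 91 with positions summed, and 90 to 225 with 1 library left out. Position 59 of tRNA-Thr-AGT-4-1 in DUS1L (0.33) turned to -0.26 with TMM factors, -0.10 with DESeq2 size factors and -0.10 with the Wald test, and ran from -0.37 to 1.37 with 1 library left out. Position 25 of tRNA-Thr-CGT-2-1 (0.15) turned to -0.39, -0.23 and -0.23 in these settings and ran from -0.71 to 1.85. Under the replicate block the treated comparison of tRNA-Thr-AGT-6-1 was -0.00029 and that of tRNA-Thr-TGT-2-1 was -0.23, and they ran from -0.13 to 1.16 and from -0.31 to 0.77 with 1 library left out. With DESeq2 size factors and with the Wald test tRNA-Thr-AGT-6-1 was 1.66 and called higher.

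Differences of shares, in percentage points, reversed often, most of them between groups that overlap. With sites above 500 counts left out they became -18.9 for tRNA-Thr-AGT and 3.51 for tRNA-Thr-TGT with 5-ClUrd in DUS1L, -1.17 for tRNA-Thr-CGT with 5-ClUrd in DUS2L, and 6.16 for tRNA-Thr-TGT between untreated enzymes. By region they became 0.79 (D loop), 1.43 (D stem and loop), -8.23 (anticodon loop) and -1.78 (hinge) between treated enzymes, 11.1 (D stem and loop) and -0.19 (hinge) between untreated ones, 0.21 (hinge) and -1.04 (variable and T region) in DUS2L, and 1.80 (hinge) in DUS1L. With each site counted once they became -3.98, -2.69 and 6.68 for tRNA-Thr-AGT, tRNA-Thr-CGT and tRNA-Thr-TGT in DUS1L, and 8.87 for tRNA-Thr-TGT between untreated enzymes. By region they became -1.54 (5′ end) in DUS2L, -6.58 (anticodon stem and loop) in DUS1L, -1.81 (5′ end), 2.01 (D loop) and 2.78 (anticodon stem and loop) between treated enzymes, and 0.88 (D stem and loop) and -0.79 (hinge) between untreated ones. With positions counted from the 3′ end the untreated differences became 5.93 (D stem and loop) and -4.03 (hinge). By position in the reference, position 25 held 75 and 23 counts in untreated DUS1L, and position 27 held 195 and 23. Counted from the 3′ end on the scale of a 74 nt reference, position 25 held 1 and 0, and position 27 held 269 and 46. The cause of the other reversals was not tested.

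With 1 library left out, differences that changed sign ran, in DUS1L, from -6.38 to 10.7 for tRNA-Thr-AGT, -2.57 to 14.6 for tRNA-Thr-CGT, -14.2 to 4.10 in the anticodon loop, -8.03 to 10.9 in the anticodon stem and loop and -3.29 to 2.74 in the hinge. In DUS2L they ran from -1.59 to 12.1 at the 5′ end, -0.30 to 4.88 in the D loop and -10.7 to 6.34 in the hinge. Between treated enzymes they ran from -3.83 to 6.24 in the anticodon loop, -11.7 to 1.83 in the anticodon stem and loop, -3.21 to 11.4 in the hinge and -6.60 to 0.34 in the variable and T region. Between untreated ones they ran from -13.4 to 5.18 in the D stem and loop and -2.54 to 14.5 in the hinge.

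Same-numbered libraries deviated together with a correlation over families of 0.51 in DUS1L (41 families) and 0.13 in DUS2L (54 families). With 2 pairs an enzyme the numbers are not taken as a pairing. The 2 untreated DUS1L libraries set the depth limit, since 1 of them holds 131 threonine counts.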

Other observations

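Antisense counts gathered on tRNA-Thr-TGT-3-1, which had 357 antisense and 220 sense counts over the 8 libraries. Of the antisense counts 352 lay at position 29. By library there were 39 and 281 in treated DUS2L, 6 and 26 in untreated DUS2L, 1 and 2 in treated DUS1L, and 2 and 0 in untreated DUS1L, so 1 library holds most of them. The 2 antisense peaks on threonine tRNA are both of that library. On tRNA-Thr-CGT-3-1 there were 44 antisense counts, 40 of them at position 17.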
